A study of Mus musculus with 18 samples.

Results

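*Hcn2*, *Hcn3* and *Hcn4* encode pore-forming subunits of hyperpolarization-activated cyclic nucleotide-gated (HCN) channels. They were chosen by name, as 3 genes of this family among the 36737 genes measured in L3–L5 dorsal root ganglia (DRG). All 3 were read in every library and passed the filter on low counts in every comparison. All mice were adult CD1 mice, an outbred strain, of 8 to 16 weeks of age. The 3 groups were sham surgery (Sham), tibial fracture fixed with an intramedullary pin with vehicle (Fracture), and the same fracture with protectin DX (Fracture+PDX), a proresolving lipid mediator made from docosahexaenoic acid. Each group held 6 mice, 3 males and 3 females, with 1 poly(A)-selected, stranded, paired-end RNA-seq library per mouse. Ganglia of fractured mice were collected on day 3, whereas the day for sham mice and the PDX dose for these mice are not given in the sources used here. The ganglia were sequenced whole, so neurons, glia, vessel and immune cells were measured together. The total count on genes was 63235040 in the shallowest library and 82824942 in the deepest.

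HCN channels open when the membrane hyperpolarizes and carry an inward cation current called Ih, which drives the membrane back toward threshold and sets repetitive firing. Channels work as tetramers, each subunit carries a cyclic nucleotide-binding domain, and cAMP makes opening easier. In sensory neurons HCN2 is best known for the cAMP-dependent firing of nociceptors in inflammatory and neuropathic pain. HCN4 is the main pacemaker subunit of the sinoatrial node of the heart, and HCN3 responds little to cAMP. The comparisons below asked whether the transcripts of these channels, or of the proteins that bind them and control cAMP, differed in DRG after fracture or with PDX.

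The 3 genes lie on different chromosomes of the mouse GRCm38 build. *Hcn2* (ENSMUSG00000020331) spans chr10:79716634-79736108 on the plus strand, *Hcn3* (ENSMUSG00000028051) spans chr3:89146074-89160196 on the minus strand, and *Hcn4* (ENSMUSG00000032338) spans chr9:58823412-58863175 on the plus strand. The main transcript of each has 8 exons, with a total length of 3195 bases for *Hcn2*, 4002 for *Hcn3* and 6118 for *Hcn4*, of which 2589, 2337 and 3603 are coding. The genes are close relatives, so the stretch of exon 4 around the codons of the pore's selectivity filter is shown to compare their bases in a region that all HCN channels have. Each stretch has 90 bases, written 5′ to 3′ along the transcript, and capitals mark the 26 positions at which the 3 genes do not all have the same base.
Hcn2, chr10:79728908-79728997, plus strand: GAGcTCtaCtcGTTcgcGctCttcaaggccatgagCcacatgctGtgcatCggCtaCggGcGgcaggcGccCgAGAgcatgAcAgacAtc
Hcn3, chr3:89150976-89151065, minus strand: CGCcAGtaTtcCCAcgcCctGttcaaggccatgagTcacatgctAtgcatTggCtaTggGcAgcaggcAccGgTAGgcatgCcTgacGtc
Hcn4, chr9:58855540-58855629, plus strand: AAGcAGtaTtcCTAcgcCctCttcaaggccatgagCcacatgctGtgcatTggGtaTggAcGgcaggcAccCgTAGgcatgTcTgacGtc
Within this stretch *Hcn2* and *Hcn3* differed at 24 positions, *Hcn2* and *Hcn4* at 18, and *Hcn3* and *Hcn4* at 12. Over the whole main transcripts the longest run shared by any pair was 33 bases, between *Hcn2* and *Hcn3* in exon 1. The longest run was 32 bases for *Hcn2* and *Hcn4*, which lies inside the stretch above, and 32 bases for *Hcn3* and *Hcn4*, in exon 5.

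Stretches of 50 bases were enough to tell the 3 transcripts from each other. Of all windows of 50 bases in the main transcripts, 3146 in *Hcn2*, 3953 in *Hcn3* and 6069 in *Hcn4*, 0 were found on the same strand in a transcript of another gene. The last exon of *Hcn3*, exon 8, overlaps *Pklr* on the opposite strand over 711 bases at chr3:89146074-89146784, where *Hcn3* has no coding bases. *Pklr*, which encodes the pyruvate kinase of liver and red blood cells, had 2 to 58 counts per library against 1925 to 2577 for *Hcn3*. The libraries are stranded, but whether the counting used strand is not given in the sources used here.

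*Hcn2* was by far the most abundant of the 3 transcripts, followed by *Hcn3* and then *Hcn4*. Levels between genes were compared as deposited FPKM, a fragment count scaled for transcript length and library size. *Hcn2* was 41.8 ± 2.01 FPKM (SD, n = 18 libraries), higher than 97.2% of all genes in the table. *Hcn3* was 6.43 ± 0.423 FPKM, higher than 82.6% of all genes, and *Hcn4* was 2.63 ± 0.388 FPKM, higher than 72.5%. The ranges of the 3 genes did not overlap in any group, and the order was the same in 18 of 18 libraries. Within a library, *Hcn2* was 6.53 ± 0.478 times *Hcn3* and 16.2 ± 2.40 times *Hcn4*, and *Hcn3* was 2.5 ± 0.395 times *Hcn4* (mean ± SD of FPKM ratios, n = 18). The lowest single ratio was 1.79, for *Hcn3* over *Hcn4* in a sham library. In the 3 groups the mean ratio of *Hcn2* to *Hcn3* was between 6.48 and 6.57.

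**Figure D1:**
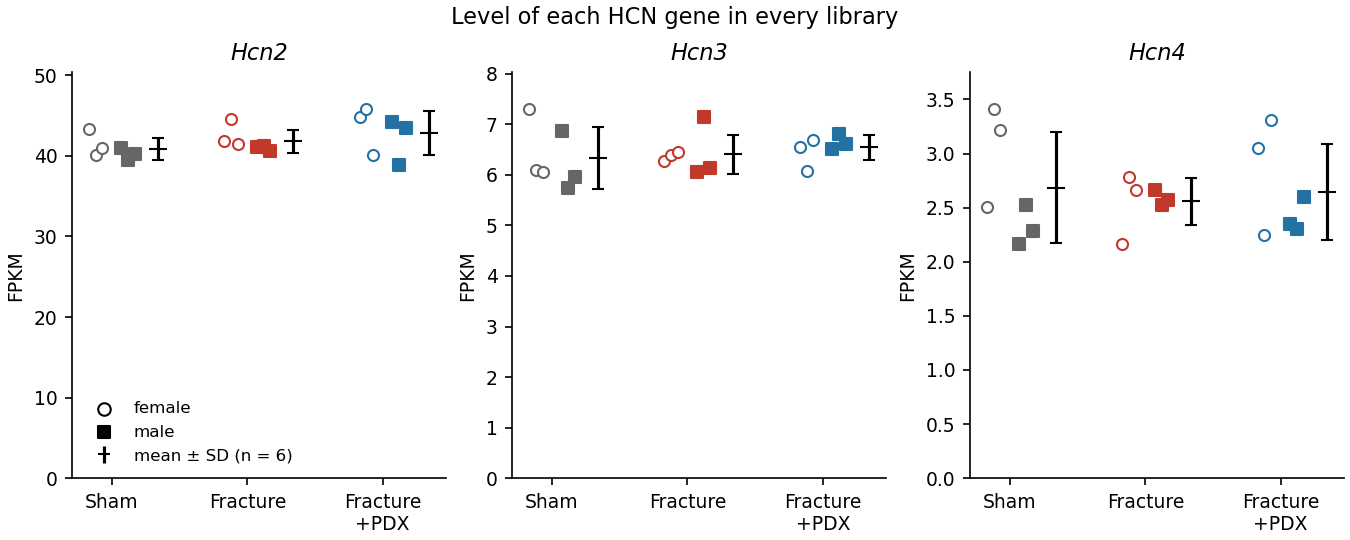
FPKM (vertical axis, from 0, a scale of its own for each gene) of *Hcn2*, *Hcn3* and *Hcn4* in every library of the 3 groups. Open circles are females, filled squares are males, and black bars are the mean ± SD of the 6 libraries of a group. The groups overlap for every gene, and the open circles of *Hcn4* spread from 2.16 to 3.41 FPKM while its squares lie between 2.16 and 2.66.

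None of the 3 channel transcripts passed the test between fracture and sham, and the groups overlapped for each. In the 6 sham libraries, *Hcn2* ranged from 39.4 to 43.3 FPKM with a median of 40.6. In the 6 fracture libraries it ranged from 40.6 to 44.5 with a median of 41.3. All 6 fracture libraries lay above the sham median, with 1 of 6 above every sham library. *Hcn2* was 3.09% higher after fracture in the fit of the counts, with a 95% confidence interval from -1.38% to 7.76% (log2 fold change 0.04, adjusted p = 0.479, edgeR quasi-likelihood test). An exact two-sided permutation test of log2 CPM (counts scaled to the library size by TMM) gave p = 0.132, where the smallest p that 6 against 6 mice allow is 0.00216.

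*Hcn3* showed a like overlap. It ranged from 5.74 to 7.30 FPKM in sham, with a median of 6.08, and from 6.05 to 7.14 in fracture mice, with a median of 6.33. The sham libraries were the more spread, and both the lowest and the highest value of the 2 groups were sham libraries. The fitted difference was 1.92%, with an interval from -6.82% to 11.5% (adjusted p = 0.866, edgeR, exact permutation p = 0.636).

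*Hcn4* ranged from 2.16 to 3.41 FPKM in sham, with a median of 2.52, and from 2.16 to 2.78 in fracture mice, with a median of 2.62. The lowest value was the same in both groups, and the fracture mice lay inside the sham range. The fitted difference was -3.15%, with an interval from -16.8% to 12.8% (adjusted p = 0.868, edgeR, exact permutation p = 0.721). Over all genes 603 of 20659, or 2.92%, were called at an adjusted p under 0.05 in this comparison, and 0 of the 3 channel genes were among them (0 also at an unadjusted p under 0.05, and 0 with DESeq2). The intervals exclude a rise of more than 7.76% for *Hcn2*, 11.5% for *Hcn3* and 12.8% for *Hcn4*.

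Between Fracture+PDX and fracture none of the 3 transcripts passed the test either. In the Fracture+PDX group *Hcn2* ranged from 38.9 to 45.8 FPKM, with a median of 43.8. This group held both the lowest and the highest *Hcn2* of all 18 libraries. Against fracture, the difference was 2.97% with an interval from -3.24% to 9.58% (adjusted p = 0.972, edgeR, exact permutation p = 0.368).

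*Hcn3* ranged from 6.08 to 6.80 FPKM with PDX, with a median of 6.58, the narrowest range of the 3 groups for this gene. The difference from fracture was 2.49% with an interval from -3.91% to 9.31% (adjusted p = 0.980, edgeR, exact permutation p = 0.364). *Hcn4* ranged from 2.25 to 3.31 FPKM, with a median of 2.48. A pair of PDX libraries lay above every fracture library for *Hcn4*, and the fitted difference was 3.45% with an interval from -10.0% to 19.0% (adjusted p = 0.990, edgeR, exact permutation p = 0.675). Over all genes 0 of 20562, or 0%, were called in this comparison by edgeR, with 1113, or 5.41%, at an unadjusted p under 0.05, while DESeq2 called 6 higher and 4 lower. None of the 3 channel genes reached an unadjusted p under 0.05.

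The largest of the 9 fitted differences between groups was that of *Hcn2* between Fracture+PDX and sham. Here 4 of 6 PDX libraries lay above every sham library, and the other two lay below the sham median. The fitted difference was 6.13%, with an interval from -0.33% to 13%, which did not pass the test (unadjusted p = 0.0617, adjusted p = 0.310, edgeR, exact permutation p = 0.0779). *Hcn3* differed from sham by 4.44%, with an interval from -4.12% to 13.8% (adjusted p = 0.634), and *Hcn4* by 0.17%, with an interval from -13.3% to 15.8% (adjusted p = 0.995). In this comparison 925 of 20574 genes, or 4.50%, were called, and 0 of the 3 channel genes. This comparison shares its sham and its PDX libraries with the other two. The 9 exact p-values given for single genes, of which *Hcn3* and *Hcn4* here had p = 0.255 and p = 0.978, are unadjusted.

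**Figure D2:**
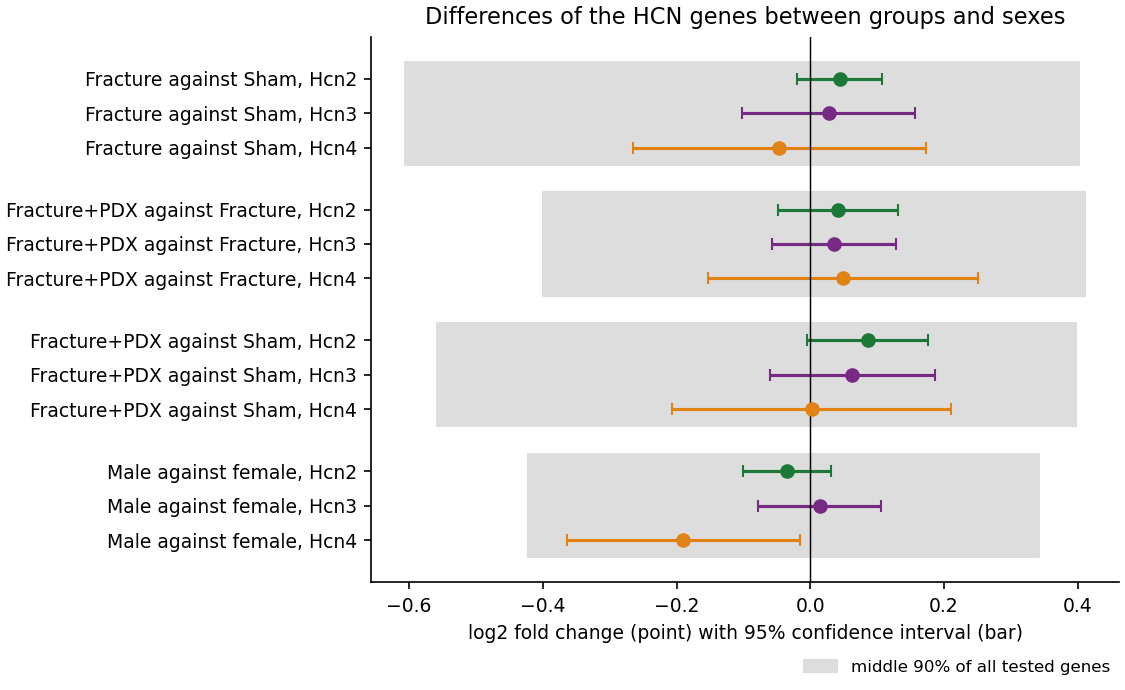
Fitted log2 fold change (horizontal axis) of each HCN gene in 3 group comparisons and between males and females. Points are edgeR estimates, bars their 95% confidence intervals, and gray bands hold the middle 90% of all tested genes. Every interval of the group comparisons crosses 0, and that of *Hcn4* between the sexes lies below 0 without passing the test across all genes.

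In DRG these channels are best known from neurons, and neuron markers differed between sham and fracture libraries. All 10 general neuron markers had a positive log2 fold change after fracture, and 3 of 10 rose past the test, where 1.09% of all genes were called higher. They were *Tubb3*, a neuronal tubulin, at 0.17 and *Uchl1* at 0.14 on the log2 scale, with adjusted p of 0.0126 and 0.0212, and *Stmn2* at 0.18, with adjusted p of 0.0273, and like the marker genes named below they were chosen after their values were seen. The summed CPM of the 10 genes was 8866 to 9554 in sham, 9939 to 10180 in fracture and 9754 to 10380 in PDX libraries, so that sham did not overlap with either. Of 8 markers of large myelinated neurons 2 rose, the neurofilament genes *Nefh* by 0.22 (adjusted p = 0.0126, edgeR) and *Nefm* by 0.19 (adjusted p = 0.0321, edgeR). Of 8 nociceptor markers 0 passed the test, with a median log2 fold change of 0.06. The median over the 10 general neuron markers was 0.13, against 0.04, 0.03 and -0.05 for *Hcn2*, *Hcn3* and *Hcn4*, and 0.00 over all genes. In PDX against sham 4 of the 10 rose, *Rbfox3* and the 3 genes above, where 2.17% of all genes did, with a median over the 10 of 0.15, against 0.09, 0.06 and 0.00 for the channel genes. Since the marker sums of sham overlap with neither other group, marker level and group cannot be told apart in comparisons with sham, and a fit with the marker mean as a covariate cannot separate them. In that fit the log2 fold changes of fracture against sham were -0.02 for *Hcn2* (SE 0.055), -0.18 for *Hcn3* (SE 0.097) and -0.15 for *Hcn4* (SE 0.215). Those of PDX against sham were 0.02 for *Hcn2* (SE 0.086), -0.17 for *Hcn3* (SE 0.093) and 0.16 for *Hcn4* (SE 0.205), with adjusted p from 0.654 to 0.985 over these 6 values. In whole ganglia, fewer cells of a type and less RNA per cell cannot be told apart.

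Other cell types moved as well, and their part in the results was not tested. Of 5 macrophage markers 2 fell after fracture, *Csf1r* by 0.47 and *Adgre1* by 0.56 on the log2 scale, where 1.83% of all genes were called lower. The summed CPM of the 5 was 53.3 to 61.2 in sham, 36.4 to 47.7 in fracture and 41.2 to 53.8 in PDX libraries. All 5 were higher in PDX against fracture, with a median of 0.30 and 0 called. Of these, 2 had an unadjusted p under 0.05, where 5.41% of all genes did. In PDX against sham 3 of the 5 were lower and 2 higher. There 1 was called lower, *Csf1r*, where 2.32% of all genes were. Of 5 satellite glia markers 1 rose in PDX against sham, *Kcnj10*, a potassium channel gene, by 0.27, where 2.17% of all genes did. In that comparison 3 of the 5 were higher and 2 lower, with a median of 0.15 and a summed CPM of 2907 to 3626 in sham, 3405 to 3756 in fracture and 3480 to 4157 in PDX libraries. The 6 vessel wall markers were all lower in PDX against sham, with a median of -0.20, 3 at an unadjusted p under 0.05 (18% of all genes in either direction) and 0 called, and summed to 224.9 to 269.5 CPM in sham, 209.7 to 265.9 in fracture and 186.7 to 239.9 in PDX libraries. Of 5 neutrophil markers 0 were called, but all 5 were higher in PDX against fracture at an unadjusted p under 0.05 (5.41% of all genes in either direction), with a median log2 fold change of 1.12. All 5 were lower in fracture against sham, with a median of -0.81. Their summed CPM was 72.1 to 321 in sham, 76.5 to 164 in fracture and 68.5 to 403 in PDX libraries. Genes of the placenta (*Prl3b1*, *Prl8a9*, *Psg21* and *Tpbpa*), which mark no DRG cell type, were present at 159 to 510 CPM in sham, 26.8 to 242 CPM in fracture and 25.6 to 126 CPM in PDX libraries. All 4 were lower in fracture at an unadjusted p under 0.05, where 18.5% of all genes were below it in either direction, and 0 of them were called, while 4 of 4 were called lower in PDX against sham, where 2.32% of all genes were. Markers of heart muscle, the tissue in which *Hcn4* is best known, summed to between 4.79 and 8.41 CPM in every library, with no gene at 0 in all. Skeletal muscle markers ranged from 14.2 to 1265 CPM over the 18 libraries. All 7 were higher after fracture (median 2.12) and lower in PDX against fracture (median -1.91), with 0 at an unadjusted p under 0.05. All 5 red blood cell markers were lower after fracture (median -0.53) and higher in PDX against fracture (median 0.27). All 5 Schwann cell markers were lower after fracture (median -0.22), and in PDX against fracture 4 were higher and 1 lower. In these 3 lists 0 were called. None of the 12 marker lists had a marker at 0 in all libraries.

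**Figure D3:**
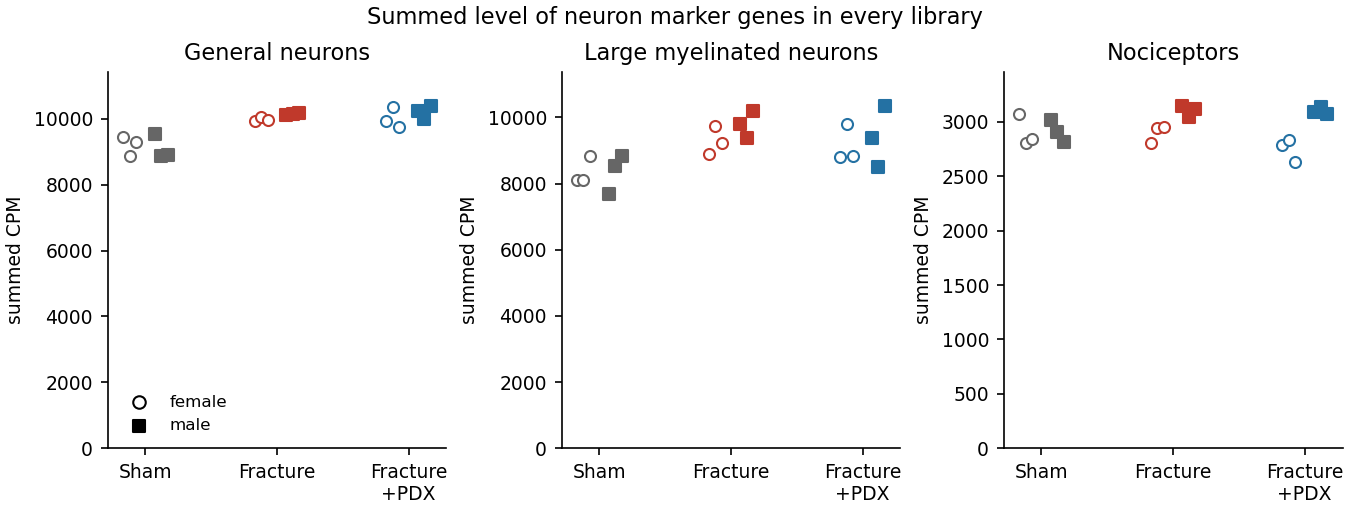
Summed CPM (vertical axis, from 0) of the markers of general neurons, large myelinated neurons and nociceptors in every library. Open circles are females and filled squares are males. The sham libraries lie below all fracture libraries for general neurons, at 8866 to 9554 against 9939 to 10180, and for large myelinated neurons, whereas nociceptor markers overlap.

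Between the sexes *Hcn4* was the one of the 3 with an interval that did not include 0. In the 9 females *Hcn4* ranged from 2.16 to 3.41 FPKM with a median of 2.78, and in the 9 males from 2.16 to 2.66 with a median of 2.52. The 5 libraries with the highest *Hcn4* were all from females, but 4 of 9 females lay within the male range. *Hcn4* was 12.3% lower in males, with an interval from -22.3% to -1.10% (unadjusted p = 0.0340), and this did not pass the test across all genes (adjusted p = 0.434, edgeR). At an unadjusted p under 0.05, 10.1% of all genes were found between the sexes, and 0.291% were called after adjustment, 0.178% higher and 0.112% lower in males. Of 4 heart muscle markers 2 were under it, with 3 lower and 1 higher in males (median -0.267). Of 8 nociceptor markers 4 were, with 6 higher and 2 lower (median 0.105). All 7 skeletal muscle markers were lower (median -1.265), 0 of them under it. In these lists 0 were called, and their part in the *Hcn4* values was not tested.

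The mean of *Hcn4* was higher in females in 2 of the 3 groups. Sham females had 2.51, 3.41 and 3.22 FPKM, and sham males 2.16, 2.52 and 2.28. Fracture females had 2.16, 2.78 and 2.66 FPKM, and fracture males 2.66, 2.52 and 2.57. PDX females had 3.05, 2.25 and 3.31 FPKM, and PDX males 2.35, 2.30 and 2.60. The means of females and males were 3.05 and 2.32 FPKM in sham, 2.53 and 2.58 in fracture, and 2.87 and 2.42 in PDX mice. The interaction of sex with fracture was 0.41 on the log2 scale (unadjusted p = 0.0454, adjusted p = 0.661, edgeR), where 7.47% of all genes had an unadjusted p under 0.05 and 0% were called. In the same contrast all 5 Schwann cell markers had an unadjusted p under 0.05, with a median interaction of -0.70, and 0 were called. Their summed CPM was 10210 to 18780 in sham females, 14980 to 23610 in sham males, 14870 to 18420 in fracture females and 12000 to 14650 in fracture males. The 7 skeletal muscle markers were all positive in it, with a median of 3.92, and 1 had an unadjusted p under 0.05. Their part in the *Hcn4* values was not tested. The interaction of sex with PDX was -0.26 (adjusted p = 0.999), where 0.00469% of all genes were called. For *Hcn2* and *Hcn3* the differences of males from females were -2.36% and 0.99%, with intervals from -6.69% to 2.17% and from -5.24% to 7.63%.

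The 3 genes varied between mice to different degrees. The coefficient of variation between mice from the fit, with counting noise taken out, was 5.75% for *Hcn2*, smaller than in 92.4% of all 21340 genes tested. It was 7.88% for *Hcn3* and 13.4% for *Hcn4*. Counting alone gives 0.951% at the mean count of *Hcn2*, 2.13% for *Hcn3* and 2.74% for *Hcn4*, all well below the spread between mice. Among genes within 0.5 log2 CPM of its level, the median was 5.72% for *Hcn2* and 8.09% for *Hcn3*, close to the genes' own values. The fit draws each gene's value toward those of genes of like level, so part of this closeness is built in. For *Hcn4* that median was 9.84%, and 16.5% of the 2531 genes at its level varied more.

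**Figure D4:**
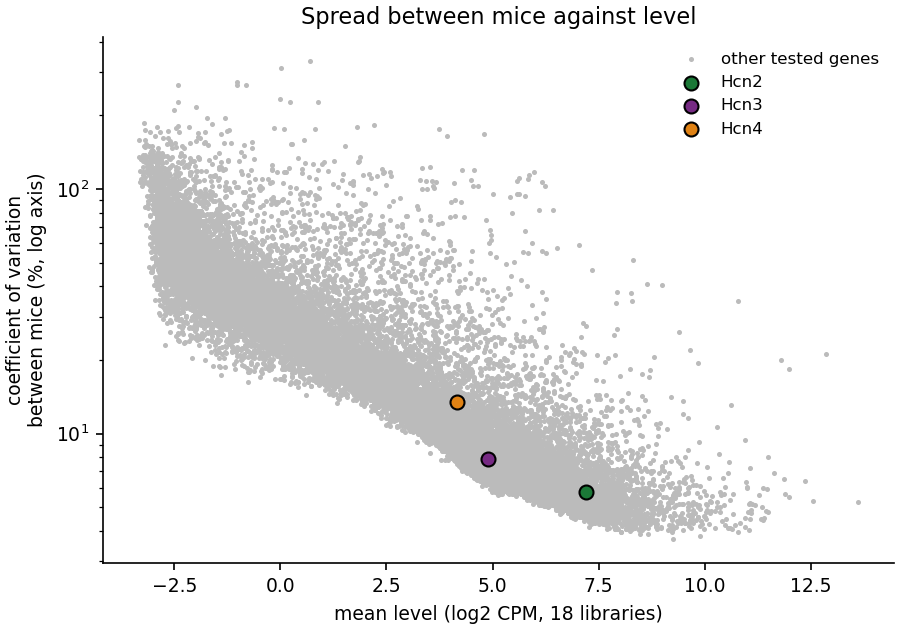
Coefficient of variation between mice (vertical log axis, percent) against the mean log2 CPM over 18 libraries (horizontal axis). Gray points are all other tested genes, and colored points are *Hcn2* at 5.75%, *Hcn3* at 7.88% and *Hcn4* at 13.4%. *Hcn2* and *Hcn3* lie in the middle of genes of their level, and *Hcn4* lies toward the upper side.

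The 3 genes showed no common deviation from mouse to mouse. After subtracting the mean of each group and sex, Pearson's r of log2 CPM across the 18 libraries was 0.01 between *Hcn2* and *Hcn3*, -0.35 between *Hcn3* and *Hcn4*, and -0.37 between *Hcn2* and *Hcn4*, with Spearman's rho of 0.05, -0.33 and -0.34. These are descriptions, and the values of a library share its depth and scaling. Of 8 marker lists compared, the mean of the nociceptor markers had the largest r with *Hcn3*, at 0.71, and the markers of large myelinated neurons (-0.66) and of the vessel wall (-0.61) came next. For *Hcn2* the largest was 0.61, with the heart muscle markers, and the nociceptor value was 0.20. For *Hcn4* the largest in size was -0.38, with the nociceptor markers. Among 14248 genes with a mean of at least 1 CPM, the 3 genes that deviated most like *Hcn2* were *Foxj1*, *Susd2* and *Dpf1*, with r between 0.883 and 0.905. For *Hcn3* they were *Blnk*, *Sergef* and *Magee2* (r between 0.879 and 0.893), and for *Hcn4* they were *Fam168a*, *Tmod2* and *Pthlh* (r between 0.899 and 0.924). These r are the highest of 14248 values from 18 libraries, so values of this size can arise by chance, which was not tested.

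The proteins that bind HCN channels were described by a list of 13 genes, and edgeR called 0 after fracture or between PDX and fracture, with 2 of 13 and 1 of 12 at an unadjusted p under 0.05, where 18.5% and 5.41% of all genes were. DESeq2 called 1 higher and 1 lower after fracture, where it called 607 and 899 of all genes. It called 0 between PDX and fracture, where it called 6 and 4 of all genes. Without sham female 2 edgeR called 1 lower, and without fracture female 1 it called 1 higher. The most abundant was *Vapb*, a tethering protein of the endoplasmic reticulum, at 36.1 ± 0.630 FPKM in sham, 36.8 ± 0.347 in fracture and 36.6 ± 0.961 in PDX mice (n = 6 each). The median log2 fold change of the list was 0.06 in fracture against sham and -0.01 in PDX against fracture, where 12 of 13 were tested. *Apba2*, a neuronal adaptor protein of the Mint family, was 11.9 to 12.9 FPKM in sham and 12.9 to 15.9 FPKM in PDX mice, and every PDX library lay above every sham library, as was so for 2.99% of all genes in one direction or the other. It was higher in PDX against sham by 0.23 on the log2 scale (SE 0.037, adjusted p = 0.00501, edgeR), the single call of 13 in a comparison with 2.17% of all genes called higher. The fracture libraries were at 12.7 to 14.96 FPKM, and the difference from sham was 0.17 (adjusted p = 0.0716). *Mrvi1*, which encodes a substrate of cGMP-dependent kinase at the endoplasmic reticulum, was 1.36 ± 0.253 FPKM in 9 females and 0.816 ± 0.200 in 9 males, and was lower in males by edgeR (log2 fold change -0.73, adjusted p = 0.00742).

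Adenylyl cyclases make cAMP from ATP, and 9 of 10 listed genes could be tested. *Adcy5* was the most abundant, at 9.09 FPKM over all libraries, and differed by 0.10 in fracture against sham (adjusted p = 0.335, edgeR). *Adcy7* was 2.48 to 3.50 FPKM in sham, 2.09 to 2.83 in fracture and 2.06 to 2.45 in PDX mice. Sham and PDX mice did not overlap for *Adcy7*, as for 2.99% of all genes. It fell by 0.41 on the log2 scale in PDX against sham (SE 0.087, adjusted p = 0.0168, edgeR), the single call of the 9 where 2.32% of all genes were called lower. The difference of fracture from sham was -0.30 (adjusted p = 0.147). The median of the list was -0.03 in both fracture against sham and PDX against fracture, with 0 called in either.

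G proteins set the activity of adenylyl cyclases, and edgeR called 0 of 7 listed subunits in any comparison. DESeq2 called 1 higher in both fracture and PDX against sham, where it called 607 and 810 of all genes higher. *Gnas*, the stimulatory subunit, was 154 ± 3.98 FPKM in sham, 159 ± 1.13 in fracture and 158 ± 2.65 in PDX mice. It differed by 0.06 after fracture (unadjusted p = 0.0329, adjusted p = 0.224, edgeR), and 5 of the 7 subunits had an unadjusted p under 0.05 in that comparison, where 18.5% of all genes did. Phosphodiesterases break cAMP down, and edgeR called 0 of 16 in any group comparison, with 3 at an unadjusted p under 0.05 in fracture against sham, where 18.5% of all genes were, and 1 in each of PDX against fracture (5.41%) and PDX against sham (18%). DESeq2 called 1 phosphodiesterase higher in both fracture and PDX against sham, beside the same 607 and 810 of all genes. So did edgeR without fracture female 1 in the former and without sham female 1 in the latter, with 1 called higher. *Pde2a*, which hydrolyzes cAMP and cGMP, was the most abundant at 14.2 FPKM and differed by 0.04 after fracture (adjusted p = 0.731). *Pde11a* was 2.89 ± 0.395 FPKM in females and 3.56 ± 0.251 in males, higher in males by 0.32 on the log2 scale (adjusted p = 0.0441, edgeR, n = 9 each).

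The proteins that bind cAMP beside HCN channels are the regulatory subunits of protein kinase A, the Epac exchange factors and the Popeye proteins. Of 11 genes in this list, with the catalytic subunits, 1 rose after fracture, where 1.09% of all genes did. It was *Prkar1b*, a regulatory subunit abundant in neurons, at 142 to 155 FPKM in sham, 154 to 162 in fracture and 154 to 166 in PDX mice. The groups overlapped, and the change from sham to fracture was 0.11 on the log2 scale (SE 0.026, adjusted p = 0.0457, edgeR). *Prkar1a*, the most abundant of the list at 193 FPKM, differed by 0.06 after fracture (adjusted p = 0.321) and by 0.09 in PDX against sham (adjusted p = 0.0539).

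In PDX against sham 1 gene of this list rose and 1 fell, where 2.17% of all genes rose and 2.32% fell. *Prkacb*, a catalytic subunit of protein kinase A, was 24.6 to 26.5 FPKM in sham and 25.3 to 29.0 in PDX mice, a rise of 0.11 (adjusted p = 0.0455, edgeR). *Rapgef3*, which encodes Epac1, was 1.94 to 3.59 FPKM in sham and 1.85 to 2.27 in PDX mice, and fell by 0.57 on the log2 scale (adjusted p = 0.0278, edgeR). Fracture libraries of *Rapgef3* lay at 1.80 to 3.03 FPKM. In the fit with the neuron marker mean, which cannot separate the markers from the group, *Apba2* was 0.28 (SE 0.076), *Prkacb* 0.10 (SE 0.062), *Adcy7* -0.22 (SE 0.172) and *Rapgef3* -0.01 (SE 0.215) in PDX against sham, and *Prkar1b* was 0.01 (SE 0.042) in fracture against sham. The adjusted p of these 5 genes in that fit was 0.294 to 0.996. The calls of *Prkar1b*, *Prkacb* and *Rapgef3* were each lost without most single libraries (10 of 12, 10 of 12 and 9 of 12, with adjusted p up to 0.109, 0.112 and 0.0721), and that of *Pde11a* without 14 of 18 (up to 0.0954). Their log2 fold changes stayed at 0.095 to 0.119, 0.097 to 0.128, -0.66 to -0.51 and 0.30 to 0.35. The calls of *Apba2*, *Adcy7* and *Mrvi1* held without any 1 library. Over all alternatives, with the left-out libraries among them, the calls held in 6 of 22 for *Prkar1b*, 5 of 22 for *Prkacb* and 12 of 22 for *Rapgef3*. They held in 21 of 22 for both *Apba2* and *Adcy7*, 19 of 19 for *Mrvi1* and 5 of 19 for *Pde11a*. The cyclic nucleotide-gated channels, the nearest relatives of HCN channels, were almost absent. Of 6 listed genes 3 could be tested, 0 were called, and the most abundant, *Cnga4*, was 0.0744 FPKM over all libraries.

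**Figure D5:**
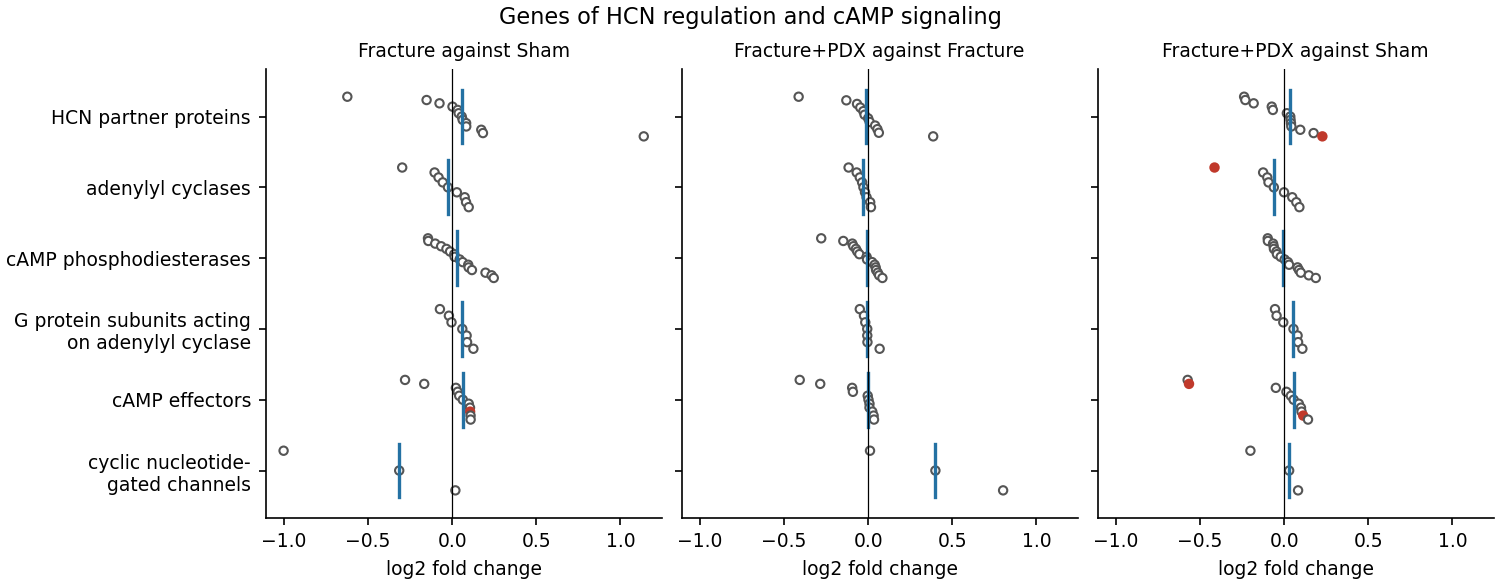
Log2 fold change (horizontal axis, 1 scale for the 3 panels) of the tested genes of 6 lists of HCN partners and cAMP signaling in 3 comparisons. Each circle is a gene, red circles passed an adjusted p under 0.05, and blue lines are the median of a list. There is 1 red circle in fracture against sham, none in PDX against fracture and 4 in PDX against sham.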

How the data were processed

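RNA-seq libraries of L3–L5 DRG from 18 mice were analysed. The authors deposited read counts per gene without normalization, and FPKM, which are scaled for transcript length and library size. The submitters' processing notes name cutadapt 1.10, FastQC, HISAT2, StringTie and the mm10 build, without their roles. The strand setting is not given in the sources used here. In the files, 1 group is named differently from its label and was read as sham, since the other 2 groups are named by theirs.

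The test was the edgeR 4.0.16 quasi-likelihood test in R 4.3.3 (filterByExpr, minimum count 10 and minimum total 15, TMM scaling, robust fits), with sex and group as terms, on the 12 libraries of a comparison, or on 18 for sex and its interactions. Calls were made at an adjusted p (Benjamini-Hochberg, over all genes tested) under 0.05. Exact permutation tests used log2 CPM with a prior count of 2. Nothing in the sources ties mice of different groups to each other, and p-values measure the spread between mice. The fits were tested on simulated data, in which changed genes differed by more than the channel genes did between groups. That test does not cover differences as small as those of the channel genes. The alternatives were DESeq2 1.42.0, upper-quartile scaling, other filters, no sex term, a replicate block, 1 fit of 18 libraries, limma 3.58.1 on log2(FPKM + 1) and log2(FPKM + 0.1), a neuron marker covariate, and leaving out each library. Sequences were read from the GRCm38 reference, with GENCODE gene models.

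The members and lists were chosen with earlier results of these data known. Named genes are the 3 channel genes, genes of the 6 lists of partners and cAMP signaling that passed the test and the most abundant gene of each of these lists, and the 3 genes whose deviations were most like each channel gene. *Pklr*, which overlaps *Hcn3*, and the marker genes were named outside this rule.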

Additional observations from a re-analysis of the deposited data

Results flagged for a closer look

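A pair of libraries stood apart from the rest of their group. In fracture female 2, *Hcn2* was 158.7 CPM, while the other fracture libraries were between 144 and 147 CPM. In fracture male 2, *Hcn3* was 32.5 CPM, while the other fracture libraries were between 28.03 and 29.7 CPM. In each case the gap to the nearest library was larger than Dixon's 95% critical value for 6 samples. The test was applied to each of the 3 genes in each of the 3 groups, and chance alone flags about 1 in 20 such groups. Without fracture male 2 the difference of *Hcn3* between fracture and sham was -0.01 on the log2 scale.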

How the results depend on the processing

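The group comparisons of the 3 channel genes gave 198 values under the alternatives, of which 0 passed the test (lowest adjusted p = 0.108) and 20 reversed in sign. With the neuron marker mean as a covariate, fracture against sham was -0.022 for *Hcn2* and -0.18 for *Hcn3*, and PDX against sham was -0.17 for *Hcn3* and 0.016 for *Hcn2*, but in these comparisons the covariate and the group cannot be told apart. The difference of *Hcn4* in PDX against sham, near 0, was -0.0027 with no filter, -0.0022 with at least 10 counts in every library, -0.0050 without the sex term, -0.0018 in 1 fit of 18 libraries, and -0.013 and -0.016 by limma on log2(FPKM + 1) and log2(FPKM + 0.1).

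Leaving out 1 library gave these ranges. In fracture against sham they were 0.025 to 0.051 for *Hcn2*, -0.0085 to 0.066 for *Hcn3* (negative without fracture male 2), and -0.095 to 0.025 for *Hcn4* (0.0085 without sham female 2 and 0.025 without fracture female 1). In PDX against fracture they were 0.02 to 0.072, 0.015 to 0.065, and -0.013 to 0.096 (negative without fracture female 1 or PDX female 3). In PDX against sham they were 0.063 to 0.115, 0.034 to 0.107, and -0.046 to 0.072. For males against females they were -0.052 to -0.019, -0.0062 to 0.044, and -0.235 to -0.152, with a lowest adjusted p of 0.267 for *Hcn4*. Over all genes they were 68 to 292 higher and 145 to 463 lower in fracture against sham, 0 to 0 higher and 0 to 1 lower in PDX against fracture, and 217 to 494 higher and 281 to 514 lower in PDX against sham. Over the 6 lists of partners and cAMP signaling they were 0 to 3 higher and 0 to 1 lower in fracture against sham, and 1 to 3 higher and 1 to 2 lower in PDX against sham.

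Counts of calls depended on the tool. DESeq2 called 607 genes higher and 899 lower in fracture against sham (edgeR 225 and 378), 6 and 4 in PDX against fracture (edgeR 0), and 810 and 817 in PDX against sham (edgeR 447 and 478). In the lists it called 5 higher and 1 lower in fracture against sham, and 7 higher in PDX against sham. With the replicate block, the calls were 25 higher and 93 lower in fracture against sham, with 0 higher in the lists, and 213 and 273 in PDX against sham, with 1 higher in the lists. The deviations of mice of the same sex and number correlated over 0.1 in 1, 3 and 1 of 6 pairs, the 3 being all the male pairs of PDX and fracture. This was not so for every pair in any comparison, so the numbers are not treated as pairs. The cause of these differences was not tested. Ratios in CPM, which are not divided by length, were 5.02 for *Hcn2* to *Hcn3*, 1.70 for *Hcn3* to *Hcn4* and 8.48 for *Hcn2* to *Hcn4*. Without subtracting group and sex means, 1, 0 and 0 of the 3 genes most like *Hcn2*, *Hcn3* and *Hcn4* were shared.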
